A study of Mus musculus with 48 samples.

Results

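Nuclear-encoded subunits of oxidative phosphorylation are described here in myeloid cells sorted from mouse colon tumors. The genes were taken by name: 81 of the 24537 genes of the count table had a symbol of the Ndufa, Ndufb, Ndufc, Ndufs, Ndufv, Uqcr, Cox4 to Cox8 or Atp5 series, 7 of these were Ndufaf assembly factors and were dropped, and 69 of the remaining 74 had a mean level of 10 CPM (counts scaled to a common library total) or more over 39 replicates. They comprised 35 of 35 names for complex I (NADH dehydrogenase), 7 of 7 for complex III (cytochrome bc1), 13 of 15 for complex IV (cytochrome c oxidase) and 14 of 17 for complex V (ATP synthase). Just above the limit lay Cox7a1 at 13.03 CPM and Atp5l at 14.1 CPM, and just below it lay Atp5g2 at 7.598 CPM and Atp5s at 3.99 CPM. The other 3 genes below the limit were Cox6a2 at 2.22, Cox4i2 at 0.815 and Atp5a1 at 0.0692 CPM. The genes encoded by mitochondrial DNA, and Ndufa7, Ndufs3, Uqcrc1, Cox8b and Cox8c, are not analysed here.

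All libraries came from mice given AOM DSS, a carcinogen followed by an agent that inflames the colon, and were collected at day 85. The genotype was ctrl or ko, the latter a knockout of the chemokine CCL17, in each of 4 populations sorted from the tumors by surface Ly6C and MHC class II: Ly6Chi MHCIIhi, Ly6Chi MHCIIlo, Ly6Clo MHCIIhi and Ly6Clo MHCIIlo. Ly6Clo MHCIIhi had 8 replicates per genotype, and the other populations had 4, of which 1 ctrl replicate of Ly6Chi MHCIIhi with 8409 counts was left out of the values and fits below, except where all libraries are said to be kept. Control mice shared cages with some of the ko mice while others of the ko mice were housed apart, the housing of a given replicate is not labelled, and neither the sex, the age nor the strain is given. The labels do not say that replicates came from separate animals, so the p-values measure only the spread between these samples.

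The sorting genes followed the labels. Ly6c2 averaged 497 CPM in Ly6Chi MHCIIhi and 1226 CPM in Ly6Chi MHCIIlo, against 26.3 and 41.4 CPM in the Ly6Clo populations. Cd74, the MHC class II invariant chain, averaged 9660 and 13864 CPM in the MHCIIhi populations, against 1858 and 2471 CPM in the MHCIIlo populations. The targeted gene Ccl17 averaged 170 ± 269 CPM (SD, n = 8) in ctrl and 3.22 ± 2.67 CPM (SD, n = 8) in ko Ly6Clo MHCIIhi cells, and at most 12.2 CPM in any group of the other 3 populations, where Ly6Clo MHCIIlo had 0.934 CPM in ctrl and 5.88 CPM in ko, so that only Ly6Clo MHCIIhi checks the labels. One library stood apart: ctrl replicate 1 of Ly6Chi MHCIIhi held 239055 CPM of red cell markers and 57864 CPM of neutrophil markers. Red cell markers also reached 11405 CPM in Ly6Clo MHCIIhi. The summed level of 9 B and plasma cell markers varied widely. It ran from 80.2 to 14808 CPM in Ly6Chi MHCIIhi and from 56.8 to 28055 CPM in Ly6Clo MHCIIhi, with medians of 2254 and 1805. In Ly6Chi MHCIIlo and Ly6Clo MHCIIlo the medians were 414 and 91.7 CPM and the highest values 6586 and 4467 CPM. The part of B and plasma cell transcripts in the results below was not tested. The libraries used held 39872 to 500683 counts.

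Complexes I, III and IV of the inner mitochondrial membrane pass electrons from NADH to oxygen and pump protons, and complex V uses the proton gradient to make ATP. Each complex joins nuclear-encoded subunits, which are imported, to subunits encoded by mitochondrial DNA, so transcripts from both genomes have to be matched. Monocytes and macrophages differ in how far they rely on this pathway rather than on glycolysis, and Ly6Chi monocytes that enter the gut are known to lose Ly6C and gain MHC class II as they become macrophages.

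The 69 genes together took about the same small part of the RNA in every population, with Ly6Clo MHCIIhi highest. Their share of all counts was 3.43% ± 0.288 (SD, n = 16) in Ly6Clo MHCIIhi, 3.13% ± 0.558 (SD, n = 7) in Ly6Chi MHCIIhi, 3.05% ± 0.319 (SD, n = 8) in Ly6Chi MHCIIlo and 2.95% ± 0.211 (SD, n = 8) in Ly6Clo MHCIIlo. The ranges overlapped for every pair of populations: 2.66 to 3.80% with a median of 3.42%, 1.89 to 3.48% with a median of 3.34%, 2.54 to 3.51% with a median of 3.03%, and 2.67 to 3.20% with a median of 2.96%, in that order. The lowest value of all, 1.89%, was that of the library rich in red cell and neutrophil transcripts. These are shares of sorted bulk RNA, in which fewer cells of a type and less RNA per cell cannot be told apart.

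**Figure D1:**
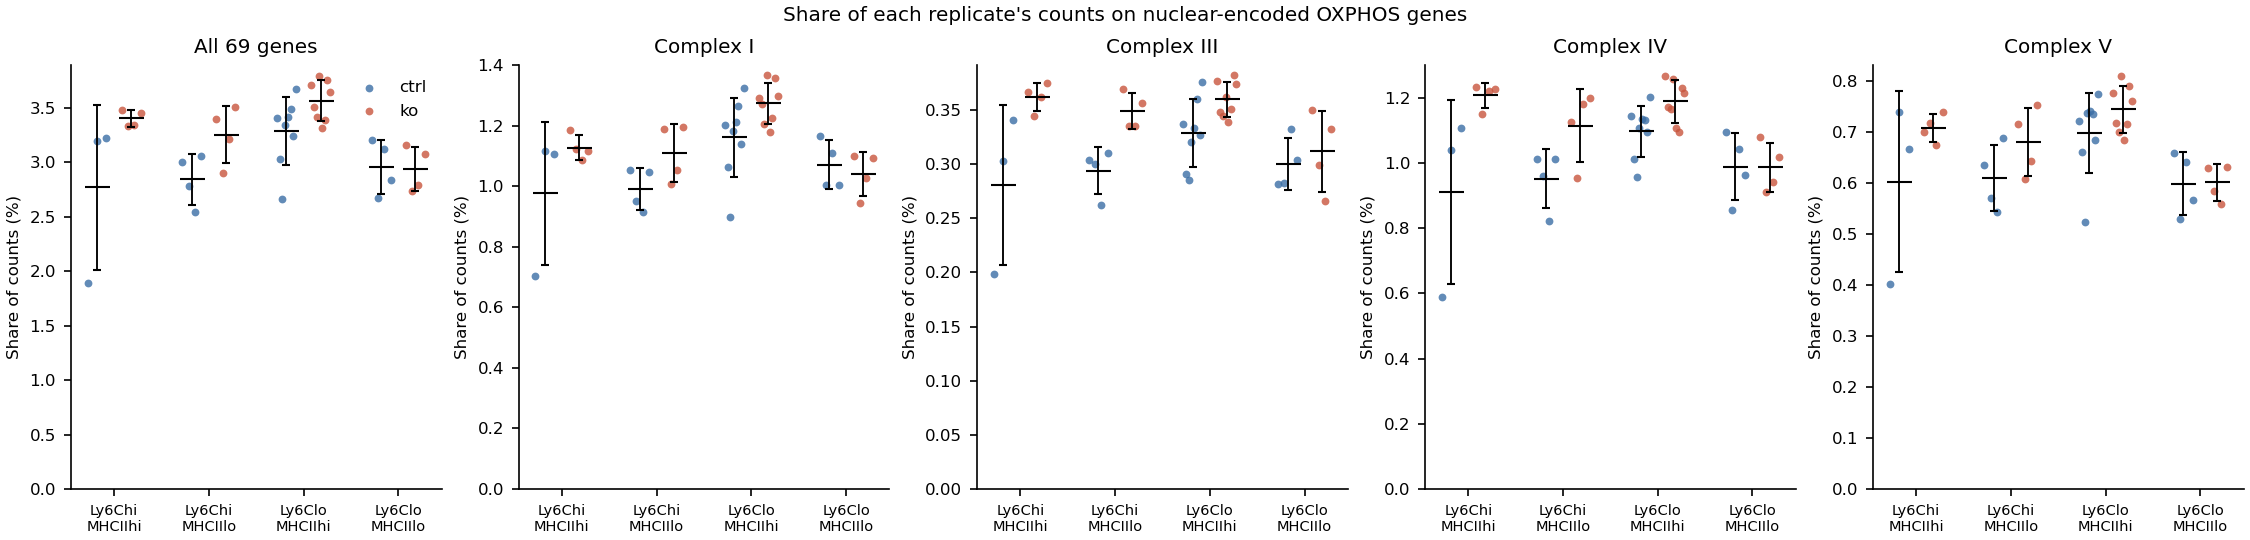
Share of each replicate's counts (%) on the 69 genes and on the genes of each complex, by population and genotype. Points are replicates, and lines and bars are the mean and SD. With both genotypes pooled the mean of Ly6Clo MHCIIhi is the highest of the 4 populations in every panel, and 1 ctrl replicate of Ly6Chi MHCIIhi, at 1.89% in the first panel, lies below all others. Within ko alone, Ly6Chi MHCIIhi is higher than Ly6Clo MHCIIhi for complex III (0.362 against 0.360%) and complex IV (1.21 against 1.19%).

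Complex I genes made up 35.1% of the summed CPM of the 69 genes, complex IV 33.7%, complex V 20.9% and complex III 10.3%. The values count 3′ ends of transcripts and were not divided by transcript length, so the order between genes is a description of these counts only. The median gene lay at 249.6 CPM in complex I, 539.7 in complex III, 748.7 in complex IV and 391.9 in complex V. Cox8a, a small subunit of complex IV, had the highest mean at 2894 CPM, followed by Cox6a1 at 1484, Cox4i1 at 1316, Atp5d at 1205, Atp5e at 1184 and Ndufa3 at 1154 CPM. Where several genes encode forms of the same subunit, 1 form held most of the counts. Cox6b1 had a mean of 1058 CPM and Cox6b2 of 15.1 CPM, Cox7a2 had 749 CPM and the muscle form Cox7a1 13.03 CPM, and the c subunit genes Atp5g3, Atp5g1 and Atp5g2 had 398.7, 218 and 7.598 CPM. In 3 genes at least 50% of the 50-base stretches in the last 300 bases of a transcript also occur in another gene, namely Atp5l, Cox7c and Atp5h, and their counts are uncertain for that reason.

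**Figure D2:**
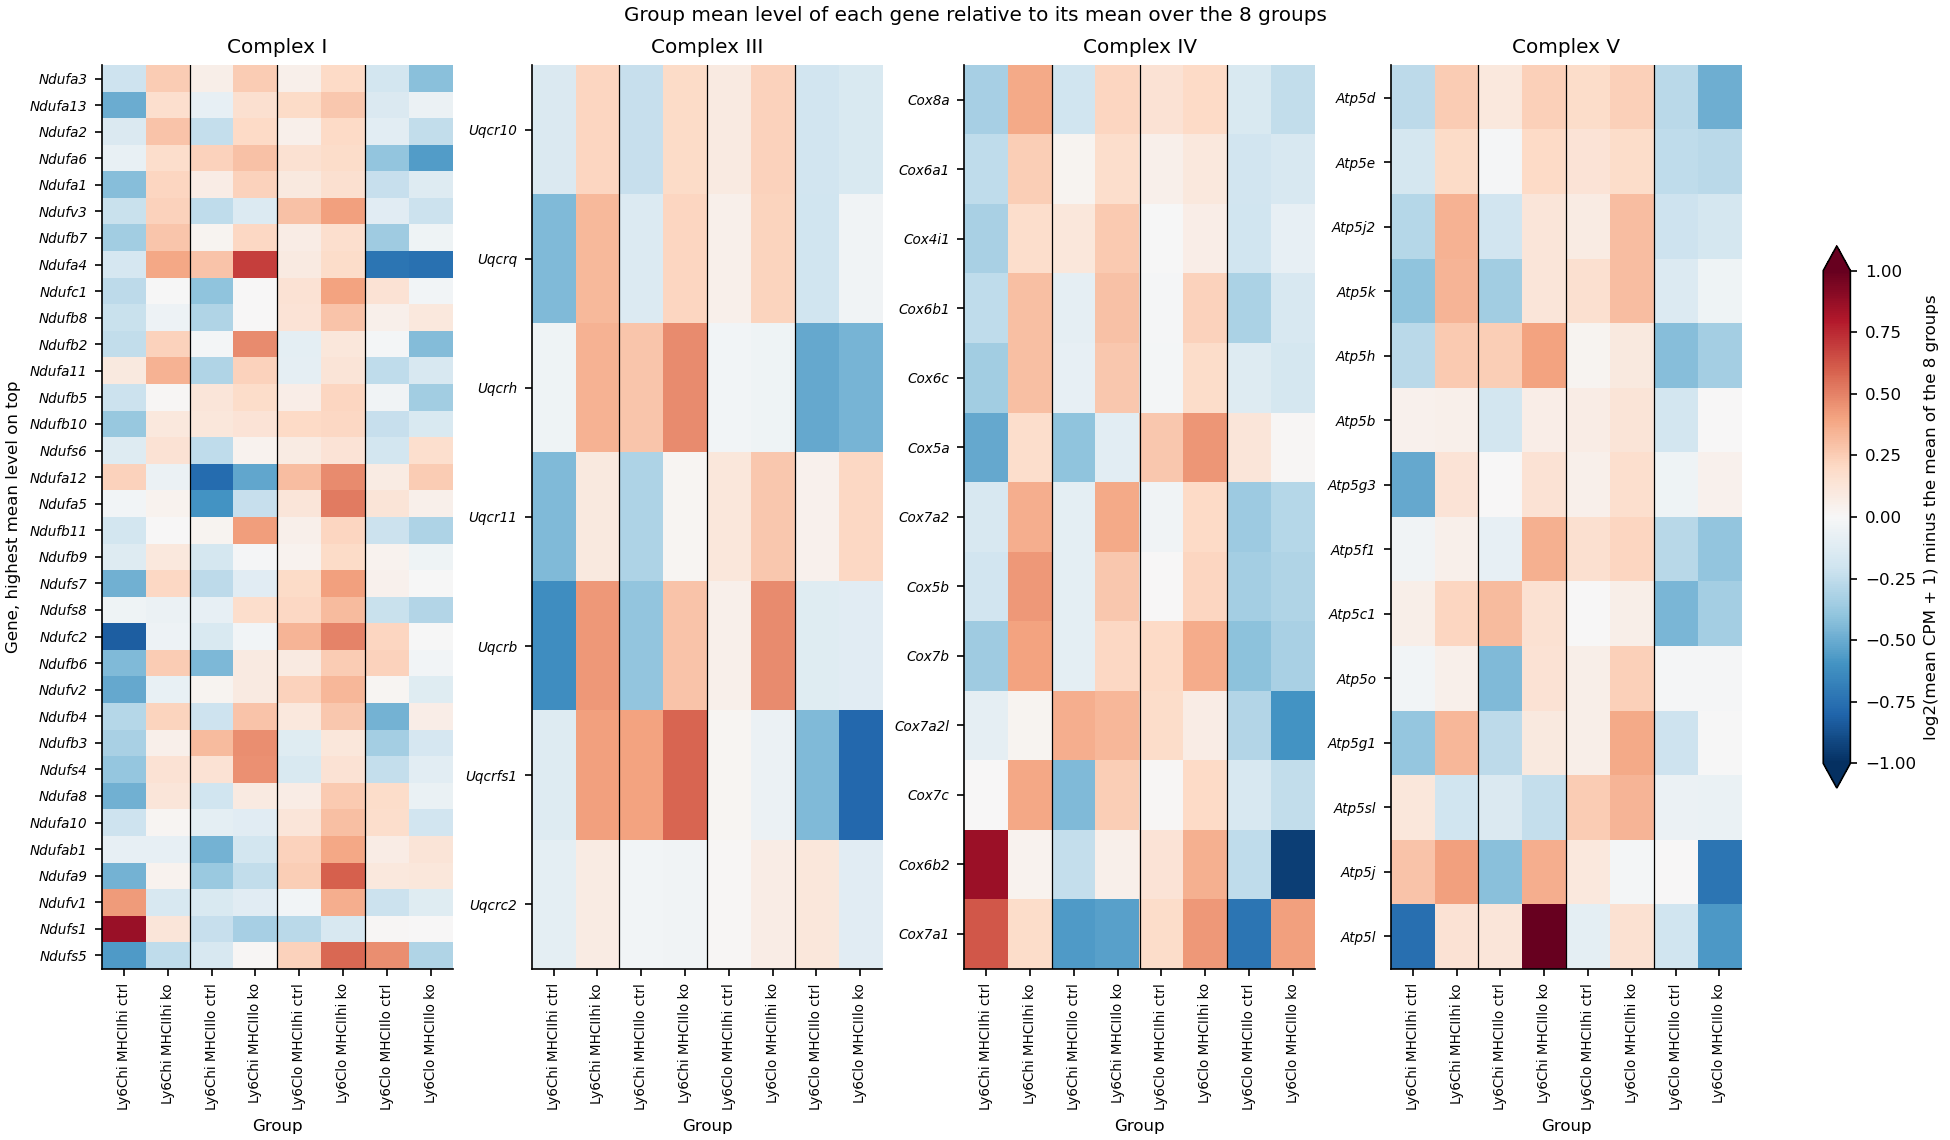
Mean level in each group of 68 of the 69 genes, as log2(mean CPM + 1) minus the gene's mean over the 8 groups, by complex, with the highest level on top. Most rows are pale in all groups, and rows such as Ndufa12, Ndufa4, Uqcrh and Uqcrfs1 change colour between populations.

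The promoters of these genes were searched for the elements bound by factors that are known to act on many respiratory genes. RefSeq sequences on GRCm38.p6 were found for 60 of the 69 genes, and the 250 bases before each start were read on both strands. The NRF1 element, written here as GCGCA, any base and GCGC, occurred in 10 of 60 (16.7%), against 4.23% of 27025 genes. The ETS element CCGGAAG, read by the factor GABP, also occurred in 10 of 60 (16.7%), against 7.83% of all genes. The cAMP response element TGACGTCA occurred in 4 (6.67%), against 1.77%, and the YY1 element AAGATGGC in 2 (3.33%), against 1.83%. At least 1 of these occurred in 22 genes (36.7%), against 14.2% of all genes. The windows of 30 bases that follow are shown because their genes differ between the populations in the results below. All lie on the minus strand and are written 5′ to 3′ on the strand of the gene, with the matched element in capitals.
Uqcrfs1, cAMP response element, chr13:30545327-30545356: cggcgtcgcgcTGACGTCAcaaaccctgcg
Uqcrh, ETS element on the opposite strand, chr4:116075071-116075100: actacgaggagtatgccgcaCTTCCGGcca
Ndufa5, NRF1 element, chr6:24527697-24527726: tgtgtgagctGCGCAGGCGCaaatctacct
Atp5k, NRF1 element, chr5:108434430-108434459: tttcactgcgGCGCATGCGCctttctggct
Atp5c1, NRF1 element, chr2:10080433-10080462: cgcctgagctcccGCGCACGCGCactgagt
Atp5h, NRF1 element, chr11:115420041-115420070: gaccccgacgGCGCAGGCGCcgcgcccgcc
Atp5h, ETS element on the opposite strand, chr11:115419939-115419968: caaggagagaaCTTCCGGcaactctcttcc
Counted from the RefSeq starts, these elements lie 29 bases before it in Uqcrfs1, 10 in Uqcrh, 17 in Atp5c1 and 50 in Atp5k. In Atp5h the NRF1 element lies 141 and the ETS element 38 bases before, and in Ndufa5 the distance is 26 or 190 bases by which of its RefSeq starts is used. The GENCODE bounds given for genes have other starts, so that the windows of Uqcrfs1, Ndufa5 and Atp5c1 lie inside the GENCODE genes. The windows of Uqcrh and Atp5k and the ETS window of Atp5h reach into them in part, with the ETS element of Atp5h inside. Ndufa12, Ndufa4, Cox5a and Cox8a hold none of these letters in the window. A match is a run of letters and not a measured site.

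The populations were then compared in pairs with edgeR's quasi-likelihood test, adjusting for all genes tested and taking genotype as a covariate. A gene is called higher or lower here at an adjusted p under 0.05, and the fold changes come from fits scaled within each comparison. The 6 comparisons share samples and are not independent of one another. Of the 69 genes 65 passed the filter on low counts in at least 1 comparison, 41 of them were called in at least 1 and 24 in none, while Cox7a1, Cox6b2, Atp5l and Atp5j were too low to be tested. Those called in none included Atp5b, the catalytic beta subunit of ATP synthase, Cox4i1, the largest nuclear-encoded subunit of complex IV, and the complex I core subunit Ndufv1.

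Among Ly6Clo cells, 22 of 64 genes were higher and none was lower in MHCIIhi than in MHCIIlo, and 60 of the 64 fold changes were above 0, against 49.9% over all genes. Over all genes tested 27.6% were called in this comparison, 13.3% higher and 14.3% lower. The median log2 fold change of the 64 genes was 0.20, against 0.00 over all genes. The called genes were 7 of 34 in complex I, 2 of 7 in complex III, 6 of 11 in complex IV and 7 of 12 in complex V, with medians of 0.18, 0.22, 0.23 and 0.29. The differences were small, and all but 3 of the 22 lay under 0.50 on the log2 scale.

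Complex I accounted for 2 of these 3. Ndufa4 was first assigned to complex I, whose genes it is counted with here by its name, and is now known to sit in cytochrome c oxidase. Its gene lies at chr6:11900292-11907497 (GRCm38, minus strand). Ndufa4 ranged from 239.7 to 539 CPM with a median of 477 in Ly6Clo MHCIIhi and from 182 to 279 CPM with a median of 255 in Ly6Clo MHCIIlo. All but 1 of the MHCIIhi replicates lay above every MHCIIlo replicate. Its log2 fold change was 0.77 (SE 0.115, edgeR adjusted p 1.13e-05). Ndufa6, an accessory subunit of complex I, ranged from 574 to 859 CPM with a median of 784 and from 400.1 to 574 CPM with a median of 488, so that the ranges almost met, and rose by 0.53 (SE 0.080, edgeR adjusted p 1.32e-05). The other genes of complex I that passed were Ndufs8 (0.42), Ndufv3 (0.40), Ndufa3 (0.30), Ndufb10 (0.29) and Ndufa13 (0.22).

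In complex III the Rieske iron-sulfur protein Uqcrfs1 and the hinge protein Uqcrh were higher in the MHCIIhi cells, by 0.49 and 0.35. The complex IV subunit Cox7b had a median of 634 CPM, from 287 to 769, in Ly6Clo MHCIIhi and of 398 CPM, from 247 to 515, in Ly6Clo MHCIIlo. Its ranges overlapped at the low end of MHCIIhi, and its log2 fold change was 0.55 (SE 0.099, edgeR adjusted p 0.000137). The other genes of complex IV that rose were Cox7a2l (0.46), Cox5b (0.32), Cox7a2 (0.30), Cox8a (0.26) and Cox6b1 (0.23). Atp5d, the delta subunit in the central stalk of ATP synthase, lay between 1132 and 1523 CPM with a median of 1336 in Ly6Clo MHCIIhi, and between 679 and 1140 CPM with a median of 885 in Ly6Clo MHCIIlo. The ranges met only at 1132 to 1140 CPM, and the log2 fold change was 0.48 (SE 0.082, edgeR adjusted p 6.95e-05). The gamma subunit Atp5c1 (0.34), the b subunit Atp5f1 (0.41), the d subunit Atp5h (0.33), the epsilon subunit Atp5e (0.31), Atp5j2 (0.27) and Atp5k (0.21) also rose.

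The same comparison also moved with neutrophil transcripts. The summed level of 14 neutrophil markers had a median of 1202 CPM, from 976 to 2346, in Ly6Clo MHCIIhi and of 13077 CPM, from 6290 to 30743, in Ly6Clo MHCIIlo, and none of the 14 was at 0 in either. S100a8, a gene high in neutrophils though not particular to them, averaged 153 CPM and 4262 CPM. Of 11 markers tested, 10 were lower and 1 higher in Ly6Clo MHCIIhi. The part of the neutrophil transcripts in the 22 calls was not tested. The calls also thinned out within genotype: among ctrl replicates with A/T-rich barcodes 1 gene was called (Ndufa4, 0.64, edgeR adjusted p 0.0263), with 8.33% of all genes called, and among ko replicates with G/C-rich barcodes 8 genes were called, with 7.43% of all genes called. These fits hold fewer samples. A fit of all 8 groups with the barcode class (explained with the genotypes below) as a term took each library as its own sample. Libraries of the same replicate thus entered it as separate samples. In it 24 of 66 genes were higher and none was lower, all 22 among them, with 20.5% of all genes called. Without the class the same fit also called 24 genes, all 22 among them.

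**Figure D3:**
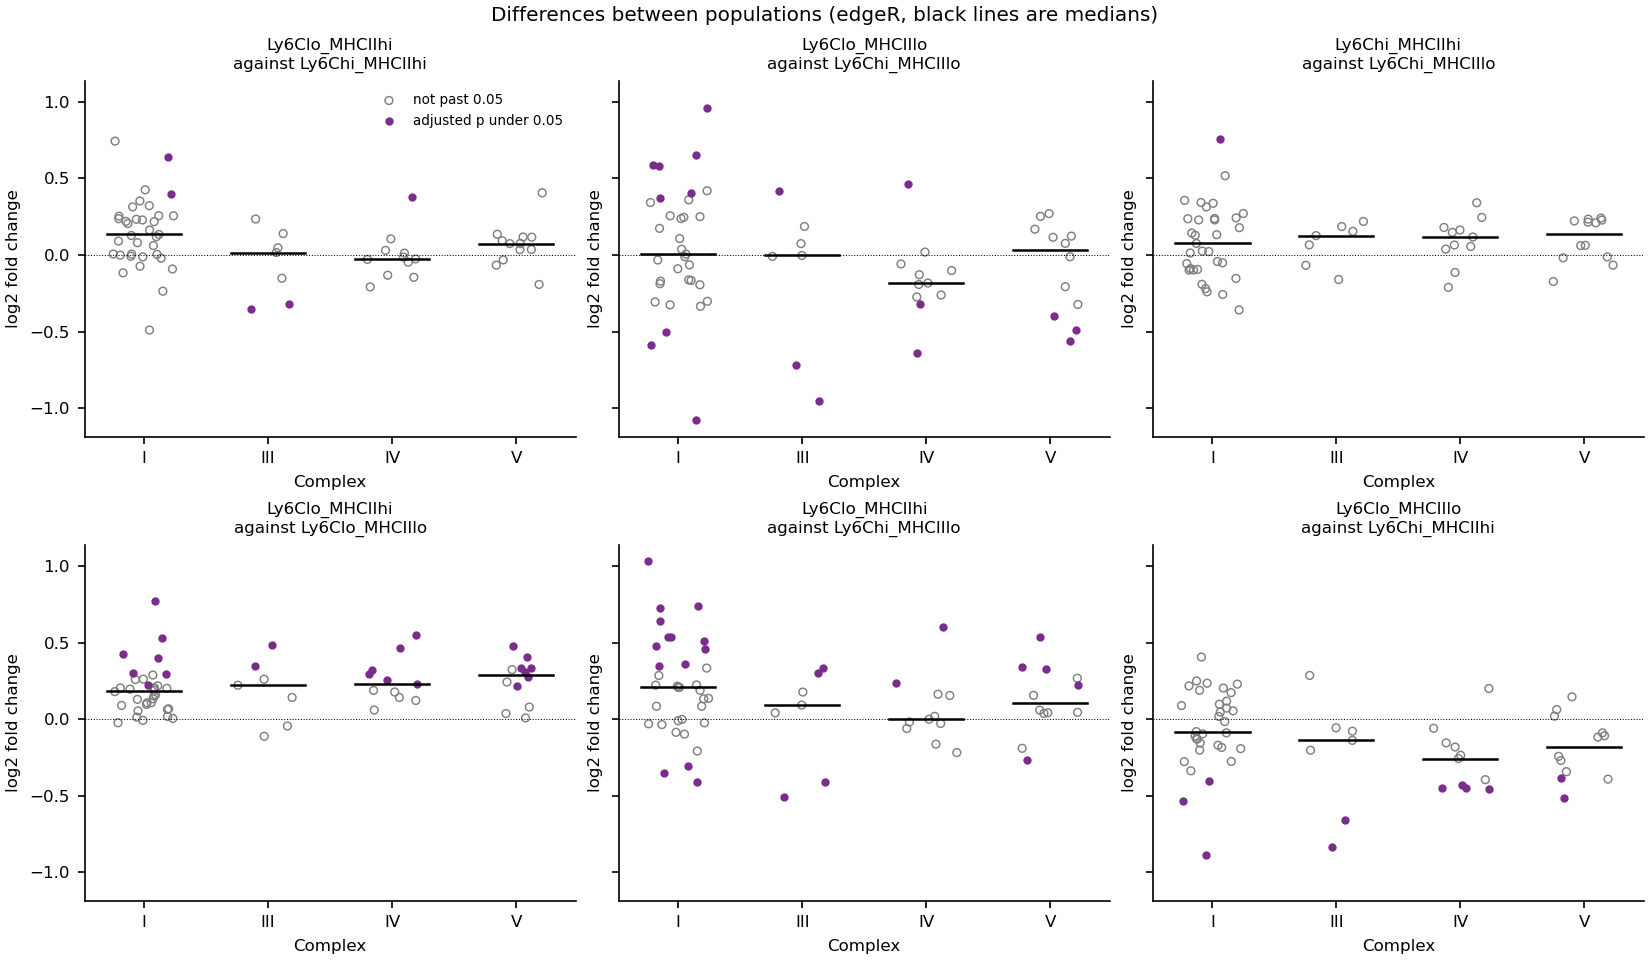
Log2 fold change of each gene between populations, by complex, from edgeR fits with genotype as a covariate. Filled points have an adjusted p under 0.05 and black lines are medians; the panel of Ly6Clo MHCIIhi against Ly6Clo MHCIIlo holds 22 filled points, all above 0.

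Against Ly6Chi MHCIIlo cells, Ly6Clo MHCIIhi cells had 19 of 64 genes higher and 6 lower. Over all genes 43.8% were called in this comparison, 21.6% higher and 22.2% lower, so that the 25 called (39.1% of the 64) are not more than that background. The median log2 fold change was 0.15. Complex I held 11 of the genes that were higher and 3 that were lower, complex III 2 and 2, complex IV 2 and 0, and complex V 4 and 1. The 14 neutrophil markers, at a median of 1202 CPM in Ly6Clo MHCIIhi, had one of 11500 CPM, from 6922 to 20205, in Ly6Chi MHCIIlo, and 10 of the 12 that were tested were lower and 2 higher in Ly6Clo MHCIIhi. Their part in the subunit calls was not tested.

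Ndufa12, an accessory subunit of the matrix arm of complex I whose gene lies at chr10:94198720-94221443 (GRCm38, plus strand), had the largest difference of these. It averaged 316 ± 59.3 CPM (SD, n = 16) in Ly6Clo MHCIIhi, 270 ± 55.2 (SD, n = 8) in Ly6Clo MHCIIlo, 252 ± 90.6 (SD, n = 7) in Ly6Chi MHCIIhi and 154 ± 34.8 (SD, n = 8) in Ly6Chi MHCIIlo. The Ly6Chi MHCIIlo replicates lay from 98.9 to 215 CPM with a median of 148, and the Ly6Clo MHCIIhi replicates from 207 to 431 with a median of 313, so that they overlapped only between 207 and 215. The log2 fold change between these 2 populations was 1.03 (SE 0.118, edgeR adjusted p 2.3e-08). Ndufa12 was also higher in Ly6Clo MHCIIlo than in Ly6Chi MHCIIlo, by 0.96 (SE 0.147, edgeR adjusted p 1.14e-05). None of the comparisons among its upper 3 populations passed the test.

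Other accessory subunits of complex I that were higher in Ly6Clo MHCIIhi than in Ly6Chi MHCIIlo were Ndufa9 (0.74), Ndufa5 (0.73), Ndufab1 (0.64), which is also the mitochondrial acyl carrier protein, Ndufv3 (0.54), Ndufs5 (0.53), Ndufc2 (0.51) and Ndufc1 (0.46), with Ndufb6 (0.36) and Ndufb8 (0.35). The core subunit Ndufs7, which carries the last iron-sulfur cluster, rose by 0.48. The 3 that were lower were Ndufb3 (-0.41), Ndufa4 (-0.35) and Ndufs4 (-0.31). Cox5a, a subunit on the matrix side of complex IV, lay from 439 to 1184 CPM with a median of 1008 in Ly6Clo MHCIIhi and from 501 to 785 CPM with a median of 609 in Ly6Chi MHCIIlo. The ranges overlapped through the lowest MHCIIhi replicates, and the log2 fold change was 0.60 (SE 0.097, edgeR adjusted p 7.29e-06). In complex V Atp5k (0.34), Atp5g1 (0.33) and Atp5j2 (0.22) were higher and Atp5h (-0.27) was lower. Atp5sl (0.54), grouped with complex V by its name, is known for a part in the assembly of complex I. Within genotype 8 genes were called in ctrl (7 higher, 1 lower, with 25.1% of all genes called) and 9 in ko (7 higher, 2 lower, with 22.2% of all genes called).

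The pair of complex III genes went the other way. Uqcrfs1, at chr13:30540308-30545362 (GRCm38, minus strand), ranged from 204.6 to 385 CPM with a median of 336 in Ly6Chi MHCIIlo, from 133 to 329 with a median of 273 in Ly6Chi MHCIIhi, from 152 to 279.9 with a median of 222 in Ly6Clo MHCIIhi and from 101 to 187 with a median of 141 in Ly6Clo MHCIIlo. Uqcrh, at chr4:116066965-116075071 (GRCm38, minus strand), ranged from 689 to 979 CPM with a median of 790.1, from 464 to 857 with a median of 739.7, from 339.6 to 699 with a median of 602 and from 295 to 522 with a median of 432, in the same order. The medians of both genes thus stood in the same order over the populations, and in both genes no replicate of Ly6Clo MHCIIlo reached the lowest replicate of Ly6Chi MHCIIlo. Both genes were called in each of the comparisons except that between the Ly6Chi populations. The window shown for Uqcrfs1 holds a cAMP response element and that for Uqcrh an ETS element, so these letters are not shared between the pair.

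**Figure D4:**
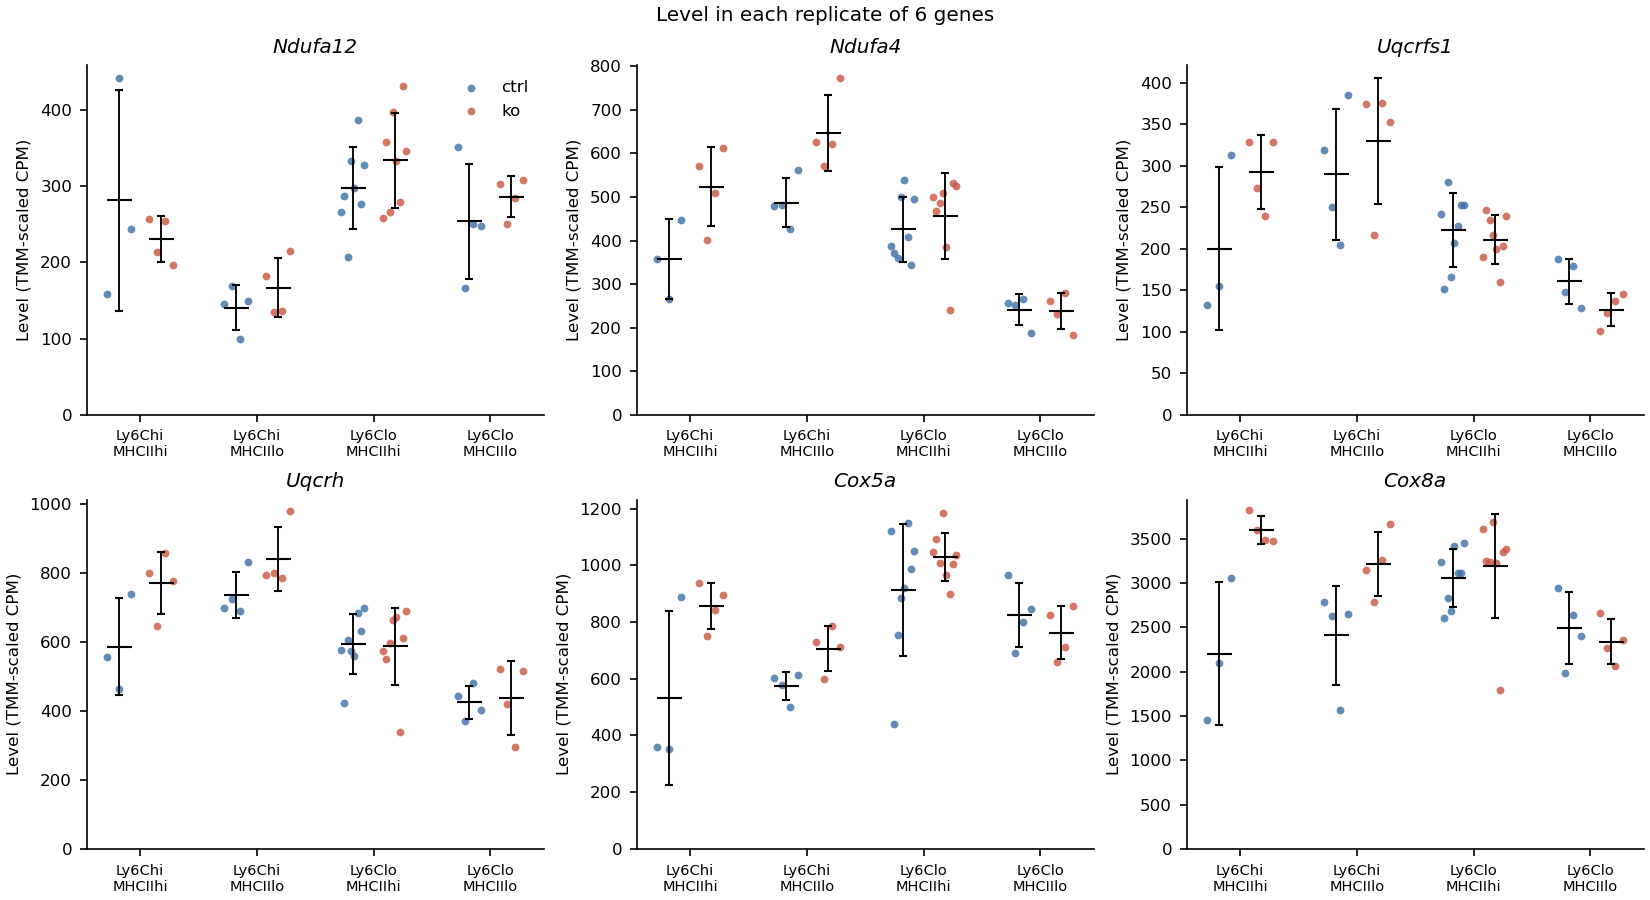
Level (TMM-scaled CPM) of 6 genes in each replicate, by population and genotype, with mean and SD. Ndufa12 is lowest in Ly6Chi MHCIIlo, Ndufa4, Uqcrfs1 and Uqcrh are lowest in Ly6Clo MHCIIlo, and single low replicates stand apart for Cox8a and Uqcrh.

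Between the MHCIIlo populations the genes moved in both directions: 8 of 63 were higher and 10 lower in Ly6Clo than in Ly6Chi cells. Over all genes tested 39% were called, 18.8% higher and 20.3% lower, so the 18 called are below that background, and the median log2 fold change was -0.01. Neutrophil markers were high in both of these populations, with a median of 13077 CPM in Ly6Clo MHCIIlo and 11500 CPM in Ly6Chi MHCIIlo. Of 13 tested, 5 were higher and 2 lower in the Ly6Clo cells, and their part in the subunit calls was not tested. Ndufa4 fell by 1.08 (SE 0.135, edgeR adjusted p 6.25e-07), from 426 to 773 CPM with a median of 567 in Ly6Chi MHCIIlo to the 182 to 279 CPM given above, with no overlap. Uqcrfs1 fell by 0.95 (SE 0.160, edgeR adjusted p 3.65e-05) and Uqcrh by 0.72 (SE 0.120, edgeR adjusted p 3.31e-05). Cox7a2l (-0.64), a factor that joins complexes III and IV into supercomplexes, Ndufa6 (-0.59), Atp5h (-0.56), Ndufb3 (-0.50), Atp5c1 (-0.49), Atp5d (-0.40) and Cox7a2 (-0.32) were lower too.

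The 8 that were higher in Ly6Clo MHCIIlo were mostly of complex I: Ndufa12 (0.96), Ndufa5 (0.65), Ndufa9 (0.59), Ndufab1 (0.58), Ndufc1 (0.40) and Ndufb8 (0.37), with Cox5a (0.46) and Uqcr11 (0.42), a small subunit of complex III. Against the same Ly6Chi MHCIIlo samples, Ly6Clo MHCIIhi had 1.03, 0.73, 0.74, 0.64, 0.46 and 0.35 for these 6 genes of complex I. Within genotype, 6 genes were higher and 4 lower in ctrl, with 21.3% of all genes called, and 1 was higher and 12 lower in ko, with 25.2% of all genes called. Ndufa12 in both comparisons with Ly6Chi MHCIIlo, Ndufa4 in both comparisons within or between the Ly6Clo MHCIIlo cells given with full statistics, Uqcrh and Uqcrfs1 between the MHCIIlo populations, and Cox5a between Ly6Clo MHCIIhi and Ly6Chi MHCIIlo stayed past the threshold under each setting and each left-out replicate that was run.

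Ly6Chi MHCIIhi cells were compared with the other populations over 7 replicates. Against Ly6Clo MHCIIlo, 11 of 63 genes were lower and none was higher in the Ly6Clo cells, where 25.4% of all genes were called and 12.6% were lower. The 11 were Ndufa4 (-0.89), Uqcrfs1 (-0.84), Uqcrh (-0.65), Ndufa6 (-0.53), Atp5c1 (-0.52), Cox5b (-0.45), Cox7a2 (-0.45), Cox7a2l (-0.45), Cox7b (-0.43), Ndufa11 (-0.40) and Atp5h (-0.38). Neutrophil markers had a median of 1546 CPM in Ly6Chi MHCIIhi, with 57864 CPM in the library that stood apart, and of 13077 CPM in Ly6Clo MHCIIlo, and of 12 tested 6 were higher and 1 lower in the Ly6Clo cells. Of the B and plasma cell markers 3 were tested, and all 3 were lower in the Ly6Clo cells. The part of either kind of transcript in the 11 calls was not tested. Without the replicate rich in red cell transcripts, ctrl replicate 1 of Ly6Chi MHCIIhi, 17 genes were lower. It was 7 without ko replicate 2 of Ly6Chi MHCIIhi or without ko replicate 3 of Ly6Clo MHCIIlo. Whether calls over all genes moved alike in these fits was not compared. Within genotype 0 genes were called in ctrl, with 0.947% of all genes called, and 12 in ko (11 lower, 1 higher), with 25.1%.

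In Ly6Clo MHCIIhi against Ly6Chi MHCIIhi cells 3 of 65 genes were higher and 2 lower, with 17.4% of all genes called, 9.31% higher and 8.1% lower. Ndufc2, a membrane-arm subunit of complex I, rose by 0.64 (SE 0.139, edgeR adjusted p 0.00144), the core subunit Ndufv2 by 0.40 (SE 0.121, edgeR adjusted p 0.0208) and Cox5a by 0.38 (SE 0.133, edgeR adjusted p 0.047). Uqcrfs1 (-0.35) and Uqcrh (-0.32) were lower. Within genotype 0 genes were called in ctrl, with 1.62% of all genes called, and 2 in ko, with 12.8%. The count of 5 fell to 1 without ko replicate 4 of Ly6Chi MHCIIhi and to 3 without any 1 of ctrl replicate 4 or ko replicates 1, 2 or 3 of that population, or of ctrl replicates 5 or 6 or ko replicates 1, 4, 6 or 7 of Ly6Clo MHCIIhi. Calls over all genes in these fits were not compared. Between the Ly6Chi populations 1 of 63 genes passed, Ndufa12, with 3.23% of all genes called and 1.48% higher, being higher in MHCIIhi by 0.76 (SE 0.202, edgeR adjusted p 0.0413), and 0 genes passed within ctrl or within ko, with 0% and 1.78% of all genes called. That call was lost when any 1 of 11 of the 15 replicates was left out: ctrl replicates 3 and 4 and ko replicates 1, 2 and 3 of Ly6Chi MHCIIhi, and ctrl replicates 1, 3 and 4 and ko replicates 1, 2 and 3 of Ly6Chi MHCIIlo. The call was also lost with the replicate number as a block in the fit. That block joined ctrl and ko replicates of the same number, which no label pairs.

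No subunit gene was called between ko and ctrl in any population. In Ly6Chi MHCIIlo edgeR called 0 of 63 genes, with 0.0756% of all genes called, and DESeq2 called 0. At an unadjusted p under 0.05 edgeR gave 14 genes, all higher in ko, and DESeq2 gave 12, where 4.89% of all genes were higher at that level by edgeR. There 56 of 63 fold changes were above 0, against 48.6% over all genes, with a median of 0.24. In Ly6Clo MHCIIhi edgeR called 0 of 66, with 0% of all genes called, gave 5 at an unadjusted p under 0.05, all higher in ko (2.23% of all genes were), and had 61 of 66 above 0, against 48.1% over all genes, with a median of 0.12. DESeq2 called 0 there and gave 6.

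In Ly6Chi MHCIIhi edgeR called 0 of 64, with 0% of all genes called, 1 gene was higher at an unadjusted p under 0.05 (2.71% of all genes were), and 42 lay above 0, against 51.1% over all genes, with a median of 0.12. Without ctrl replicate 1, the library rich in red cell transcripts, 0 of 64 were called, 39 lay above 0 and the median was 0.07. In Ly6Clo MHCIIlo edgeR called 0 of 62, with 0.0314% of all genes called, 2 lay under an unadjusted p of 0.05 (4.27% of all genes did) and 34 lay above 0, against 52.5% over all genes, with a median of 0.02. DESeq2 called 0 in both and gave 0 genes under an unadjusted p of 0.05 in both. In a test of whether the ko difference varied over the 4 populations, edgeR called 0 of 65 genes, with 0.0663% of all genes called, and 3 had an unadjusted p under 0.05 (6.66% of all genes did).

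Uqcrb, the ubiquinone-binding protein of complex III, had the smallest unadjusted p in both Ly6Chi populations. In Ly6Chi MHCIIlo its ctrl replicates held 155, 181, 208 and 234 CPM and its ko replicates 245.5, 303, 347 and 358 CPM. In Ly6Chi MHCIIhi the 3 ctrl replicates held 110, 146 and 244 CPM and the 4 ko replicates 280.5, 324, 385 and 397 CPM. The groups did not overlap in either population, where 0.0756% and 0% of all genes were called at an adjusted p under 0.05. How many of all genes have ko and ctrl replicates apart in this way was not counted. The log2 fold changes were 0.65 (SE 0.190, edgeR adjusted p 0.227) and 0.68 (SE 0.270, edgeR adjusted p 0.709). In Ly6Clo MHCIIhi its ctrl replicates ran from 147 to 361 CPM and its ko replicates from 279 to 419 CPM, overlapping, with 0.36 (SE 0.129). In Ly6Clo MHCIIlo ctrl held 191, 243, 248 and 263 CPM and ko 217, 234, 237 and 259.5 CPM, with no separation.

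Other genes with small unadjusted p values belonged to complexes IV and V. Cox7c in Ly6Chi MHCIIlo held 63.7, 85.3, 91.7 and 94.3 CPM in ctrl and 109, 112.6, 156 and 165 CPM in ko, with a log2 fold change of 0.66 (SE 0.226, edgeR adjusted p 0.289). Atp5k there held 451, 532, 542 and 584 CPM in ctrl and 675.5, 705, 705.5 and 824 CPM in ko, with 0.43 (SE 0.156, edgeR adjusted p 0.317). In both genes every ko replicate lay above every ctrl replicate, though neither difference passed the test. The share of all genes whose replicates separate in this way was not counted. Cox6b1 in Ly6Clo MHCIIhi ran from 820 to 1163 CPM in ctrl and from 1059.5 to 1311 CPM in ko, with 0.23 (SE 0.079, edgeR adjusted p 0.888). Ndufb2, a membrane-arm subunit of complex I, lay the other way in Ly6Clo MHCIIlo, at 309, 325, 346 and 367 CPM in ctrl and 221, 235, 240.4 and 309 CPM in ko, with -0.42 (SE 0.174, edgeR adjusted p 0.999).

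The genotypes differed in the barcodes of their libraries, which have 6 bases. Counting a barcode with 3 or more G or C bases as G/C-rich, all ctrl libraries of the 3 populations with 4 replicates had A/T-rich barcodes and all their ko libraries G/C-rich ones, so that in those populations an effect of the barcode and one of the genotype cannot be told apart. Of the 12 libraries per genotype of Ly6Clo MHCIIhi, A/T-rich barcodes were on 8 for ctrl and on 4 for ko. In 5 replicates of that population both classes of library had been made from the same replicate. The share of counts on the 69 genes was higher in the G/C-rich library of each of the 5, by 0.0784 to 0.500 percentage points. It was 3.39 and 3.46% in ctrl replicate 5, 3.34 and 3.67% in ctrl replicate 6, 3.14 and 3.36% in ctrl replicate 7, 3.35 and 3.84% in ctrl replicate 8, and 3.70 and 3.93% in ko replicate 4, the A/T-rich library first. In these ctrl replicates the A/T-rich barcode was always on library 2, so class and library number cannot be told apart there. In ko replicate 4 the order was reversed. Libraries of the same class could also differ. In ko replicates 5, 7 and 8, with G/C-rich barcodes only, the shares were 3.18 and 3.41%, 3.76 and 3.76%, and 3.74 and 3.42%, library 1 first.

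Fitted within the replicates that had both classes, 59 of 68 genes were higher in the G/C-rich library. The median log2 difference was 0.14 against 0.01 over all genes, and the overlap of class with library number limits this fit as well. edgeR called 0 of the 68 and 1.54% of all genes, with 17 of the 68 at an unadjusted p under 0.05. Uqcrb stood at 0.38 (edgeR adjusted p 0.154) and Cox8a at 0.02. A fit of all 8 groups with the class took each library as its own sample. Its medians of ko against ctrl were 0.17 in Ly6Chi MHCIIhi, 0.16 in Ly6Chi MHCIIlo, 0.10 in Ly6Clo MHCIIhi and -0.12 in Ly6Clo MHCIIlo, against 0.24, 0.26, 0.12 and 0.01 without the class. Outside Ly6Clo MHCIIhi class and genotype coincide, so the class term comes from the libraries of that population alone. In the other populations the medians with the class are shifted by that term and do not part genotype from barcode. In Ly6Clo MHCIIhi the median was 0.16 over A/T-rich libraries alone (59 of 65 genes above 0) and 0.02 over G/C-rich libraries alone (37 of 65). Uqcrb stood at 0.48 and 0.02 in these. The shares of all genes above 0, or under an unadjusted p of 0.05, were not counted for the fits of this paragraph.

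**Figure D5:**
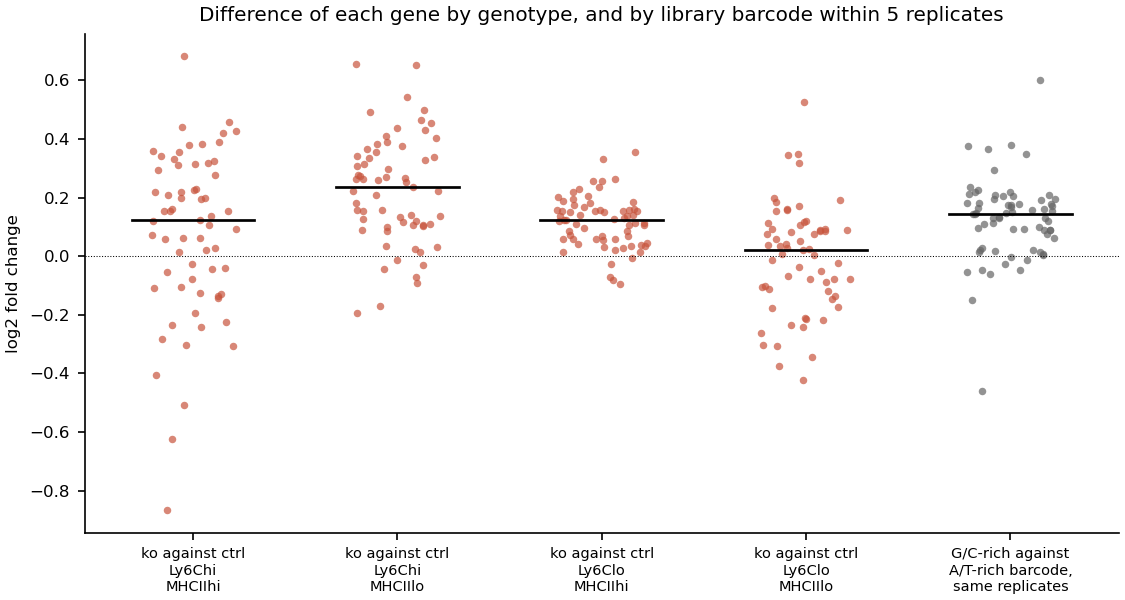
Log2 fold change of each gene between ko and ctrl in each population, and between the G/C-rich and A/T-rich library of the same replicate in 5 replicates of Ly6Clo MHCIIhi (grey). Black lines are medians, at 0.12, 0.24, 0.12, 0.02 and 0.14 from left to right.

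The mean share of counts was higher in ko than in ctrl in 3 of the 4 populations. In Ly6Chi MHCIIlo the 69 genes took 2.85% ± 0.236 of counts in ctrl and 3.26% ± 0.264 in ko (SD, n = 4 each), with overlapping ranges of 2.54 to 3.06% and 2.90 to 3.51%. In Ly6Clo MHCIIhi they took 3.29% ± 0.313 and 3.57% ± 0.186 (SD, n = 8 each), also overlapping. In Ly6Chi MHCIIhi the 3 ctrl replicates held 1.89, 3.20 and 3.22% and the 4 ko replicates 3.34 to 3.48%, which did not overlap. In Ly6Clo MHCIIlo the shares were 2.96% ± 0.248 and 2.94% ± 0.206 (SD, n = 4 each).

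Genes that assemble, feed or exchange with these complexes were counted from lists. In Ly6Clo MHCIIhi against Ly6Chi MHCIIlo, where 21.6% of all genes were higher and 22.2% lower, 10 of 26 tested assembly factors were higher and none lower, with a median of 0.38. Ndufaf2, which assembles complex I, rose by 1.12, and Coa3, which assembles complex IV, by 0.65. Of 21 genes of protein import 9 were higher and none lower, with a median of 0.38, led in size by the chaperonin Hspe1 (0.98) and the import motor Hspa9 (0.85). Of 6 exchange genes 3 were higher, among them Atpif1, the inhibitor of ATP synthase (0.94). Of 15 genes of the tricarboxylic acid cycle 3 were higher (Idh2, Fh1 and Mdh2 at 1.03, 0.71 and 0.47), which is near that background, and Ogdh was lower (-0.33), and none of the 4 genes of complex II was called. Among 6 regulators Myc was higher (1.98) and Hif1a lower (-0.62).

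In Ly6Clo MHCIIhi against MHCIIlo, where 13.3% of all genes were higher and 14.3% lower, 5 of 14 glycolysis genes were lower and none was higher, with a median of -0.31. Slc16a3, the lactate exporter, fell by 1.23 (SE 0.133, edgeR adjusted p 5.45e-08), Pkm by 0.48 and Aldoa by 0.32. In the same comparison 5 of 20 assembly factors were higher, including Ndufaf3 (0.53) and Coa3 (0.35), and 4 of 18 import genes. Of 12 cycle genes Mdh2 (0.61) was among the 2 that were higher and Ogdh (-0.70) was the 1 that was lower, a count near the background. The neutrophil transcripts given above move with this comparison as well. No gene of these lists was called between ko and ctrl in any population.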

How the data were processed

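The authors deposited raw counts per gene for 48 libraries of bulk 3′ poly(A) sequencing, per the file headers and labels. R 3.4.4, DESeq2 1.18.1 and GRCm38 are named in the submitters' processing notes. The sources used here name no aligner and do not say whether reads or molecular identifiers were counted. A row naming no gene (127 counts) was dropped. The libraries of 1 replicate were added, and 1 library under 0.1 of the median total (280060) was left out, leaving 39 replicates. Levels are TMM-scaled CPM. Fits used edgeR 4.0.16 in R 4.3.3 (quasi-likelihood, TMM, filterByExpr with a minimum count of 10 and total of 15, Benjamini-Hochberg over all genes tested), with DESeq2 1.42.0 as an alternative, and were tested on simulated data. The simulation covered only some of the comparisons, changed only genes of higher level, and used larger fold changes than most given here. Members and lists were chosen with earlier results of these data known. Genes are named that passed the test, with the largest or most often called first, beside the smallest p values by genotype. Replicate numbers were not used as pairs, since in no comparison did all same-numbered replicates correlate above 0.1. Between Ly6Chi MHCIIhi and Ly6Chi MHCIIlo 6 of 7 did. 1 gene is not reported here by name. Coordinates are GENCODE M21 on GRCm38. With 3 to 16 samples per group, depth and number limit the precision.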

Additional observations from a re-analysis of the deposited data

Results flagged for a closer look

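In 8 of 84 groups of 4 to 10 samples, 1 replicate lay apart from the rest of its group by Dixon's test, where chance gives about 1 in 20. The share of counts on complex IV was 1.15% in ko replicate 2 of Ly6Chi MHCIIhi (next value 1.22%), and that on complex V was 0.523% in ctrl replicate 3 of Ly6Clo MHCIIhi (next 0.660%). Cox8a lay at 1572 CPM in ctrl replicate 3 of Ly6Chi MHCIIlo (next 2627) and at 1798 CPM in ko replicate 6 of Ly6Clo MHCIIhi (next 3232). Uqcrh lay at 340 CPM (339.6) in the latter replicate (next 552) and, on the high side, at 979 CPM in ko replicate 4 of Ly6Chi MHCIIlo (next 801). Uqcrfs1 lay at 217 CPM (216.5) in ko replicate 2 of Ly6Chi MHCIIlo (next 353), and Ndufa4 at 189 CPM in ctrl replicate 4 of Ly6Clo MHCIIlo (next 253).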

How the results depend on the processing

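For 23 genes, in 60 pairs of a gene and a comparison, the fold change was recomputed under the other settings and left-out replicates, and none reversed; the other named genes were not followed in this way. Of 591 gene values under other settings 455 stayed past the threshold and 136 did not, and of 1224 with a replicate left out 1097 did and 127 did not. With 1 replicate left out, the number of genes called was 0 to 0 for ko against ctrl in each population, 1 to 6 for Ly6Clo MHCIIhi against Ly6Chi MHCIIhi, 15 to 19 for Ly6Clo MHCIIlo against Ly6Chi MHCIIlo, 0 to 1 for Ly6Chi MHCIIhi against MHCIIlo, 19 to 24 for Ly6Clo MHCIIhi against MHCIIlo, 19 to 27 for Ly6Clo MHCIIhi against Ly6Chi MHCIIlo and 7 to 17 for Ly6Clo MHCIIlo against Ly6Chi MHCIIhi. Counts that moved by over 1.5 times are given next, and the cause was not tested beyond the fewer samples of the fits within genotype. Calls over all genes can change with a setting as well. Their share is given above for the fits within genotype. It was not compared for the other settings listed here or for left-out replicates. For Ly6Clo MHCIIhi against Ly6Chi MHCIIhi (5 called) the count was 1 with no count filter, 1 with the replicate block, 3 with all libraries kept, 3 with library 1 only, 3 with all 8 groups in 1 fit, 0 in ctrl and 2 in ko. For Ly6Clo MHCIIlo against Ly6Chi MHCIIlo (18) it was 10 in ctrl. For Ly6Chi MHCIIhi against MHCIIlo (1) it was 2 by DESeq2 (Ndufa12 and Ndufv3) and 0 with no count filter, with the replicate block, in ctrl and in ko. For Ly6Clo MHCIIhi against MHCIIlo (22) it was 14 with the replicate block, 1 in ctrl and 8 in ko. For Ly6Clo MHCIIhi against Ly6Chi MHCIIlo (25) it was 13 with no count filter, 15 with the replicate block, 8 in ctrl and 9 in ko. For Ly6Clo MHCIIlo against Ly6Chi MHCIIhi (11) it was 2 with no count filter, 7 with the replicate block, 5 with all libraries kept and 0 in ctrl. For ko against ctrl in Ly6Chi MHCIIhi, 1 gene (Uqcrq, 0.60, edgeR adjusted p 0.0440) was called against 0 where all 8 groups were fitted together, each library its own sample and without the barcode class, an alternative added after seeing the data. The replicate block changed no other count by over 1.5 times and called 0 in each genotype comparison. It joined ctrl and ko replicates of the same number, which no label pairs, and some numbers of Ly6Clo MHCIIhi occur in no other population. The counts with the block thus cannot show what a pairing of samples would do. The 2 settings with a barcode class alone and the difference within replicates were also chosen after seeing the data. Leaving out replicates was not run for the test of differences in the ko effect between populations.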
